A study of Mus musculus with 11 samples.

Results

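The proximal tubule of the kidney takes filtered protein back from the urine and digests peptides and sugars at its brush border, and 10 genes of that work are described here: the endocytic receptor genes Lrp2, Cubn, Amn and Dab2, and the brush border and tubule enzyme genes Mep1a, Mep1b, Ggt1, Treh, Miox and Dnase1. They were chosen by name, and every probe that the platform annotation gives to one of these symbols was taken. The annotation named 16 of the 45281 probes for 9 of the 10 genes and none for Ggt1, which is not analysed here. Of the 16 probes, 14 were kept as above background (detection p below 0.05) on 2 or more arrays, and the 9 genes were among the 12865 genes tested.

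Illumina bead arrays, 11 in all, read the total RNA of whole organs of adult BALB/C mice, each labelled as female. There were 4 groups: healthy kidney (n = 3), kidney made fibrotic (n = 2) by unilateral ureter obstruction, healthy lung (n = 3), and lung made fibrotic by bleomycin given into the trachea (n = 3). No transgene or deletion is named, and the interval between injury and sampling is not given in the sources used here. By their titles the healthy kidneys and healthy lungs came from the same 3 mice, but in the description fields every array has a mouse of its own. In whole tissue, fewer cells of a type and less RNA per cell cannot be told apart.

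Megalin, encoded by Lrp2, and cubilin, encoded by Cubn, are large receptors at the apical surface of proximal tubule cells that bind albumin, vitamin carriers and many other filtered ligands. Cubilin has no membrane anchor of its own and reaches the surface with amnionless, the product of Amn, while the adaptor encoded by Dab2 links megalin to clathrin-coated pits. The brush border beside them carries the meprins, γ-glutamyl transferase and trehalase, and the tubule cell beneath breaks down myo-inositol through Miox. Obstruction of the ureter is a standard way to injure the tubule and scar the kidney. Several of these genes are also known outside the kidney, Lrp2 in lung and Dab2 in macrophages among them.

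The promoters are shown for the 4 genes that were lower in the obstructed kidneys and have a window that can be printed. Each window runs from 250 bases before to 50 bases after an annotated start, 5′ to 3′ on the gene's strand, from RefSeq on GRCm38.p6. The windows lie at chr2:13491827-13492126 on the minus strand for Cubn, and on the plus strand at chr9:44672983-44673282 for Treh, chr15:89334223-89334522 for Miox and chr16:4036786-4037085 for Dnase1. Capitals mark the half-site GTTAAT of HNF1 or the HNF4 word CAAAGTCCA, searched on both strands, so that ATTAAC and TGGACTTTG are those words on the other strand.
Cubn: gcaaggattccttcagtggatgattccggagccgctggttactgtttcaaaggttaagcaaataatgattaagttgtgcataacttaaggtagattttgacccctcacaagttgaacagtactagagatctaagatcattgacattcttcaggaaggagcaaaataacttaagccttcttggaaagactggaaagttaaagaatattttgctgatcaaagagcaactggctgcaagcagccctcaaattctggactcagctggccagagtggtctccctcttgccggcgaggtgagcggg
Treh: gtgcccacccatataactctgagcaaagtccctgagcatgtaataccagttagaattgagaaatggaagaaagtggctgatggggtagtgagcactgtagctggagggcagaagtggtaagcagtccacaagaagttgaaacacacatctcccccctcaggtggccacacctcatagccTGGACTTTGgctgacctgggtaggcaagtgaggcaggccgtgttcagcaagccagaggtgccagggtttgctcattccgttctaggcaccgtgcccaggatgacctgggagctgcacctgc
Miox: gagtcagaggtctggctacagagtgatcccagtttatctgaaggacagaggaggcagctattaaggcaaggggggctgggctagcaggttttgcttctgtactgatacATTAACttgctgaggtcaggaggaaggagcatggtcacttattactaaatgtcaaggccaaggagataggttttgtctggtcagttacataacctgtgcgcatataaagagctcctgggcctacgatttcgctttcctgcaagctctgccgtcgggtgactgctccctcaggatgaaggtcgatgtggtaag
Dnase1: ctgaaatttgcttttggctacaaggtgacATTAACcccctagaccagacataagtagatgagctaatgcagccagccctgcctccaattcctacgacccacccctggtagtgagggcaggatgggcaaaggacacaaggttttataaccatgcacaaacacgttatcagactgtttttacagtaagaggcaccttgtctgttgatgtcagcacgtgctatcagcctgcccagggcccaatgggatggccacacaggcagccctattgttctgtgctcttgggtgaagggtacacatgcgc
HNF1 and HNF4 are transcription factors of proximal tubule and liver cells. The 14 member windows belong to 9 of the 10 listed genes. Ggt1, which has no probe, is among these 9, and Mep1b, which had no window, is not. The HNF1 half-site stood in 3 of the 14 windows, 1 each of Miox, Dnase1 and Dab2, and in 7.1% of all 32851 windows. It began 142 bases before the start in Miox and 221 bases before the start of the printed window in Dnase1. Dnase1 has another annotated start, whose overlapping window does not hold the half-site. The HNF4 word stood in the Treh window, 71 bases before the start, and in 0.475% of all windows. The word TATAAA, also searched on both strands, stood in 4 member windows of 3 members, Miox, Dnase1 and Ggt1, and in 13.6% of all windows. It lay on the gene's own strand in Miox only, and on the other strand in Dnase1 and Ggt1. The overlapping Dnase1 windows share the same TATAAA, so it is counted in each of them. In Miox it began 40 bases before the start. The full HNF1 site, searched by its consensus, stood in none of the members' windows. No 2 of these words overlapped. A match is a run of letters and not a bound site, and for Cubn it can only be said that these letters are not in this window.

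Levels below are log2 intensities after background correction and quantile normalisation, on which Dnase1, not above background in any lung, read 4.29 to 4.61 there, and each probe is compared between arrays. Where 2 probes are subtracted within an array, only the shift of that difference between arrays is read, not which gene is the more abundant. The brightest probe of a gene stands for it. Changes are log2 differences between group means with the standard error (SE) of a limma fit over all 11 arrays, and adjusted p-values are limma's over all 12865 genes with the Benjamini-Hochberg method, 0.05 being the threshold. Over all genes the median kidney change was 0.10 and the median lung change was -0.03.

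Several facts of the arrays bear on what follows. Raw median intensity was 95.2 to 125.1 and 17036 to 21504 probes were detected per array, and r across genes lay between 0.935 and 0.988 for pairs of arrays within a group. Xist, which coats the silenced X, read 4.41 to 4.74 in healthy kidneys, which is background, against 10.83 and 10.56 after obstruction, while the Y-linked Eif2s3y stood at 9.06 to 9.41 and then at 4.42 and 4.40, although all the mice are labelled female. These transcripts divide the kidneys exactly as obstruction does, so the sex of the mice and obstruction cannot be told apart here. Of 11 genes known to respond to androgen in mouse kidney, 10 were lower in the obstructed kidneys, with a median change of -4.70. The airway gene Scgb1a1 was not above background in any healthy kidney and stood at 12.48 and 11.35 in the obstructed kidneys (at least 96.9-fold higher, limma adjusted p = 2.7e-07), with 8 and 9 of 12 lung epithelium markers detected there against 4 or 5 in the healthy kidneys; summed, the 12 came to 14.70 to 14.84 in the healthy and 15.10 and 14.78 in the obstructed kidneys, a sum set mostly by Napsa. Bleomycin lung replicate 1 carried kidney transcripts, with Umod at 9.19 and Slc12a1 at 7.17 and 7 of 8 thick limb and distal tubule markers detected, against 3 or 4 of 8 on every other lung array. Bleomycin lung replicate 3 had Xist at 9.03 and Eif2s3y at 4.44, the other lung arrays the Y-linked transcript. Healthy lung replicate 3 had the liver gene Apoa1 at 13.94, and the healthy kidneys had it at 8.62, 7.58 and 6.79 against 4.98 and 4.65 after obstruction. Other liver genes did not all go that way. Of 10 tested, 0 were called in either direction between obstructed and healthy kidneys, with changes from -4.69 to 2.05. Summed, the 10 came to 13.17, 12.71 and 12.12 in the healthy and to 10.97 and 13.76 in the obstructed kidneys. The part of these transcripts in the kidney results was not tested.

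**Figure D1:**
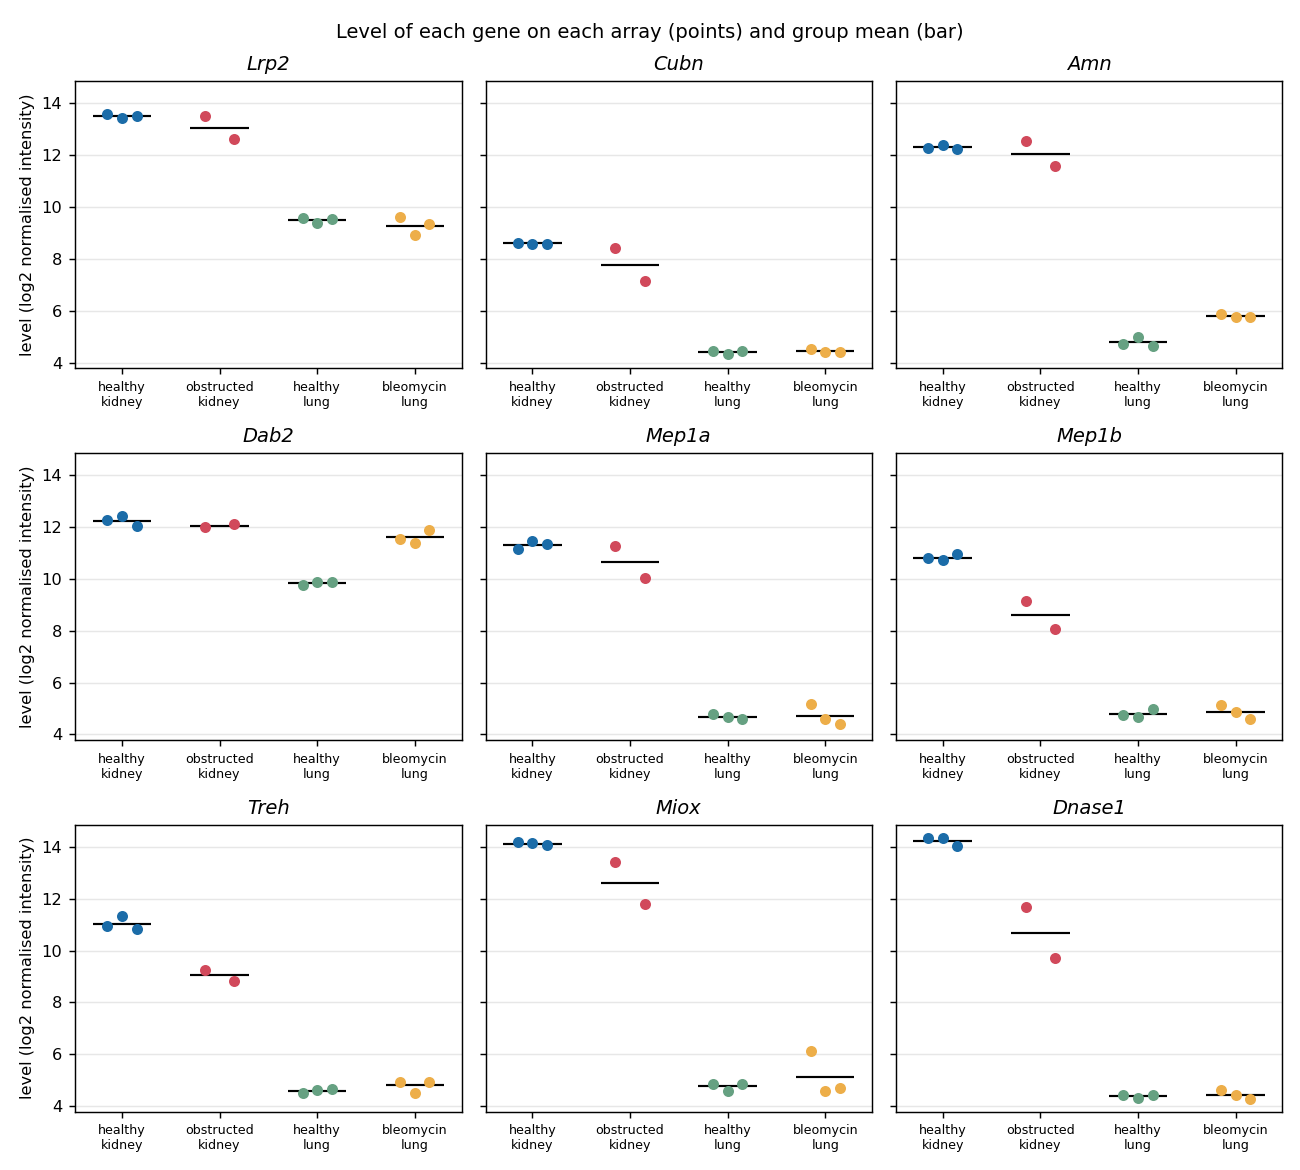
Level of the 9 measured genes on each of the 11 arrays (y axis, log2 normalised intensity); points are arrays, coloured by group, and bars are group means. In Mep1b, Treh and Dnase1 both obstructed kidneys lie well under the 3 healthy ones, in Dab2 the kidneys overlap and the 3 bleomycin lungs lie over the 3 healthy lungs, and Miox has 1 bleomycin lung at 6.11.

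The main question was how these genes differed between the obstructed and the healthy kidneys, a contrast in which obstruction and the sex of the mice cannot be told apart. A fall or a rise below means a lower or higher level in the injured group. The enzyme genes Dnase1, Mep1b, Treh and Miox and the receptor gene Cubn fell, and Lrp2, Amn, Dab2 and Mep1a did not pass the test. Thus 5 of 9 measured genes were called lower and 0 higher, where 15.6% of all genes tested were called lower and 23.2% higher, and the members' median change was -0.82. For the same 5 genes both obstructed arrays lay under all 3 healthy ones, as did 25.2% of all genes. At an unadjusted p under 0.05 the counts were also 5 and 0, and the fitted changes of the other 4 were below 0 as well. The count of lower genes was 8 without obstructed replicate 1, 3 without obstructed replicate 2 or any 1 healthy kidney, and 3 with the mouse as a block, the 3 being Dnase1, Mep1b and Treh each time.

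Among the receptors, Lrp2, the gene of megalin, stood at 13.57, 13.43 and 13.52 in the healthy kidneys and at 13.51 and 12.61 in the obstructed ones. Replicate 1 thus lay among the healthy values and replicate 2 under them. The change was -0.44 ± 0.26 (SE, limma adjusted p = 0.21), with a 95% interval from -1.03 to 0.14. That value comes from the probe ILMN_2735522. A second probe, ILMN_3117209, read 7.47, 6.91 and 6.79 in the healthy kidneys. It was not above background in the obstructed kidneys, at 4.43 and 4.85, which is at least 3.87-fold lower. This probe passed the filter only through the 3 healthy kidneys, which favoured a lower level elsewhere, so its value is a description and no test is read from it. The 2 probes thus gave unlike values for Lrp2, and another probe, ILMN_1233247, was near background throughout (4.37 to 5.16 in the kidneys) and did not pass the filter.

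Cubn, the gene of cubilin, stood at 8.60, 8.59 and 8.59 in the healthy kidneys and at 8.40 and 7.13 in the obstructed ones. Both obstructed arrays were lower, the first by little. The change was -0.82 ± 0.28 (SE, limma adjusted p = 0.042). Without obstructed replicate 2 it was -0.19 with adjusted p = 0.377, and with the mouse as a block the adjusted p was 0.0763, and without any 1 healthy kidney it also missed the threshold (adjusted p = 0.0823 to 0.0888). Amn, whose product carries cubilin to the surface, stood at 12.29, 12.39 and 12.22 in the healthy kidneys and at 12.55 and 11.56 in the obstructed ones, 1 above and 1 below all healthy values. Its change was -0.25 ± 0.25 (SE, limma adjusted p = 0.47), interval -0.80 to 0.30, and it turned to 0.25 without replicate 2.

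Dab2, the adaptor gene, had the narrowest interval of the 9. It stood at 12.25, 12.40 and 12.05 in the healthy and 11.98 and 12.10 in the obstructed kidneys, so the groups overlapped. The change was -0.19 ± 0.18 (SE, limma adjusted p = 0.43), interval -0.58 to 0.20, and its 2 other kept probes gave -0.04 and -0.41, neither past the threshold. Macrophages also express Dab2, and 12 of 13 macrophage markers rose in the obstructed kidneys, among them Mrc1, a scavenger receptor gene (3.36 ± 0.16 SE, limma adjusted p = 1.2e-06), and Fcgr3, an Fc receptor gene (4.26 ± 0.28 SE, limma adjusted p = 7.2e-06). Summed, the 13 markers came to 10.55 to 10.84 in the healthy and to 13.35 and 14.11 in the obstructed kidneys. Their part in the Dab2 level was not tested.

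Of the meprin subunit genes at the brush border, Mep1b fell and Mep1a did not pass the test. Mep1b encodes meprin β, the subunit that anchors the metalloprotease in the membrane, and Mep1a encodes meprin α. Mep1b stood at 10.79, 10.72 and 10.94 in the healthy kidneys and at 9.15 and 8.07 in the obstructed ones, with no overlap, a change of -2.21 ± 0.28 (SE, 4.62-fold lower, limma adjusted p = 0.00022). Its other 2 probes gave larger falls, -4.08 ± 0.29 and -3.77 ± 0.26 (SE, limma adjusted p = 5.4e-06 and 4.8e-06 over all kept probes). Mep1a stood at 11.15, 11.44 and 11.33 and then at 11.26 and 10.03, with 1 obstructed array among the healthy ones. Its change was -0.66 ± 0.33 (SE, limma adjusted p = 0.14), interval -1.39 to 0.07. Within arrays, the Mep1a level minus the Mep1b level was 0.35, 0.72 and 0.39 in healthy and 2.11 and 1.96 in obstructed kidneys. This difference was higher on both obstructed arrays, was close between them, and was given no test of its own.

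Treh encodes trehalase, which splits the sugar trehalose at the brush border. It stood at 10.93, 11.34 and 10.84 in the healthy kidneys and at 9.26 and 8.84 in the obstructed ones. The groups did not overlap and the 2 obstructed arrays lay close together. The change was -1.99 ± 0.21 (SE, 3.96-fold lower, limma adjusted p = 7.5e-05).

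Miox encodes myo-inositol oxygenase, which opens the inositol ring in the first step of its breakdown, and is a cytosolic enzyme of the tubule. It stood at 14.17, 14.13 and 14.05 in the healthy kidneys and at 13.41 and 11.81 in the obstructed ones. Both were lower, replicate 2 far more so. The change was -1.50 ± 0.49 (SE, 2.84-fold lower, limma adjusted p = 0.033), but it was -0.70 with adjusted p = 0.335 without replicate 2, 0.0609 with the mouse as a block and 0.0653 to 0.0788 without any 1 healthy kidney.

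Dnase1 encodes the secreted nuclease that digests extracellular DNA. It stood at 14.35, 14.34 and 14.02 in the healthy kidneys and at 11.66 and 9.72 in the obstructed ones, the largest change of the 9 genes by their brightest probes. The change was -3.54 ± 0.42 (SE, 11.7-fold lower, limma adjusted p = 0.00015), and without replicate 2 it was -2.57. Set against the brighter Lrp2 probe within arrays, the Lrp2 level minus the Dnase1 level moved from -0.77, -0.91 and -0.51 in the healthy kidneys to 1.85 and 2.89 in the obstructed ones. The other kept Lrp2 probe, ILMN_3117209, was not above background in the obstructed kidneys and was itself at least 3.87-fold lower there. The shift is therefore read for the brighter probe only.

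**Figure D2:**
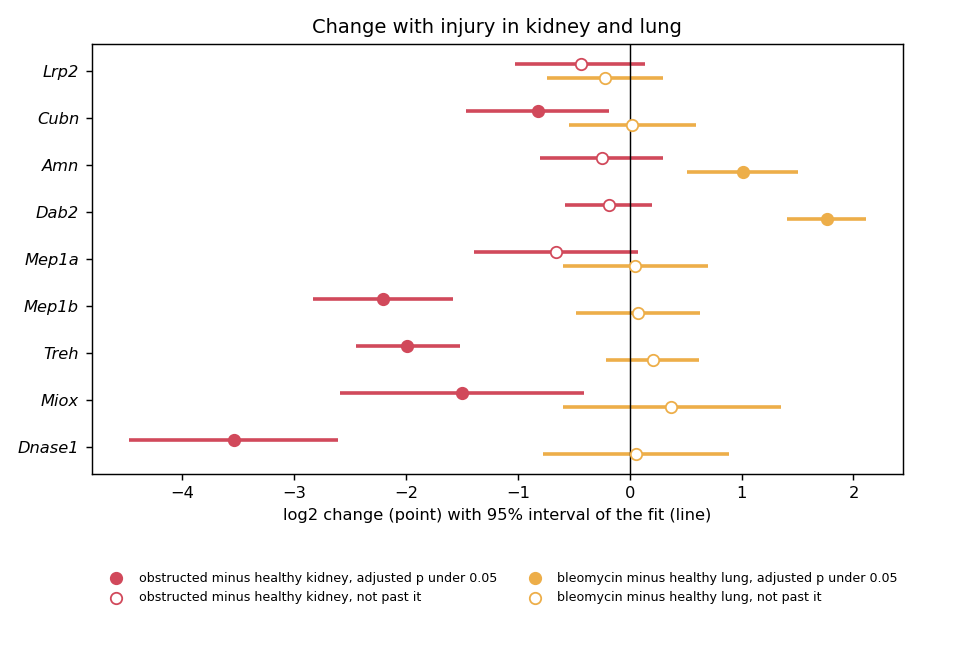
Log2 change of each gene in obstructed against healthy kidney and in bleomycin against healthy lung (x axis), with the 95% interval of the limma fit as a line; filled points have an adjusted p under 0.05. In kidney the filled points are Cubn, Mep1b, Treh, Miox and Dnase1, all below 0, and in lung they are Amn and Dab2, both above 0.

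The obstructed kidneys differed from each other. For 8 of the 9 genes replicate 2 was the lower, and the median difference from the healthy mean was -0.25 in replicate 1 and -1.46 in replicate 2. Replicate 2 was also the lower for 25 of 27 genes of proximal tubule transport and metabolism and for 18 of 20 brush border genes, and outside the proximal tubule for 7 of 8 collecting duct, 6 of 8 thick limb and distal tubule and 5 of 5 podocyte genes. The collecting duct median was 0.19 in replicate 1 and -0.78 in replicate 2. Over all genes it was lower for 6560 of 12865. The injury gene Havcr1, encoding KIM-1, stood at 10.24 in replicate 1 and 13.13 in replicate 2, against 9.42, 9.40 and 9.84 in the healthy kidneys. Over the 9 injury genes tested, the median difference from the healthy mean was closer between the replicates, 3.65 in replicate 1 and 4.03 in replicate 2. Summed, however, the 9 came to 14.08 in replicate 1 and 15.86 in replicate 2, against 11.38 to 11.76 in the healthy kidneys. Of these 9 genes 1 was the lower in replicate 2. Dnase1, Mep1b and Treh were called lower in each of 13 other settings of the processing, Cubn and Miox in 5, Lrp2 in 3, Amn and Mep1a in 2 and Dab2 in 1.

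**Figure D3:**
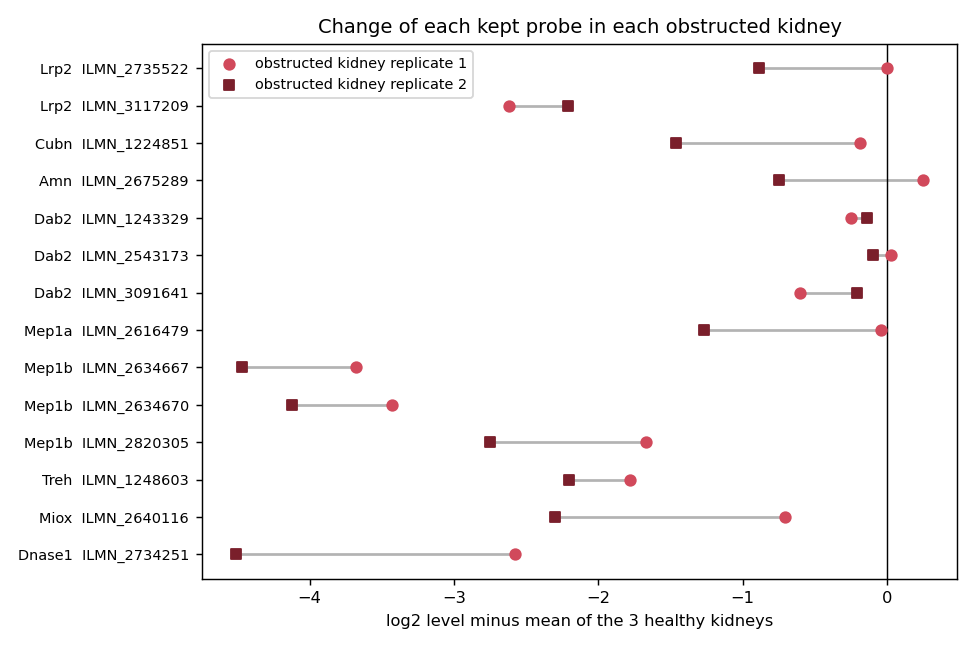
Log2 level of each kept probe in each obstructed kidney minus the mean of the 3 healthy kidneys (x axis), with circles for replicate 1 and squares for replicate 2. The 3 Mep1b probes lie far to the left in both arrays, the Lrp2 probes part from each other, and the squares lie left of the circles for most genes.

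**Figure D4:**
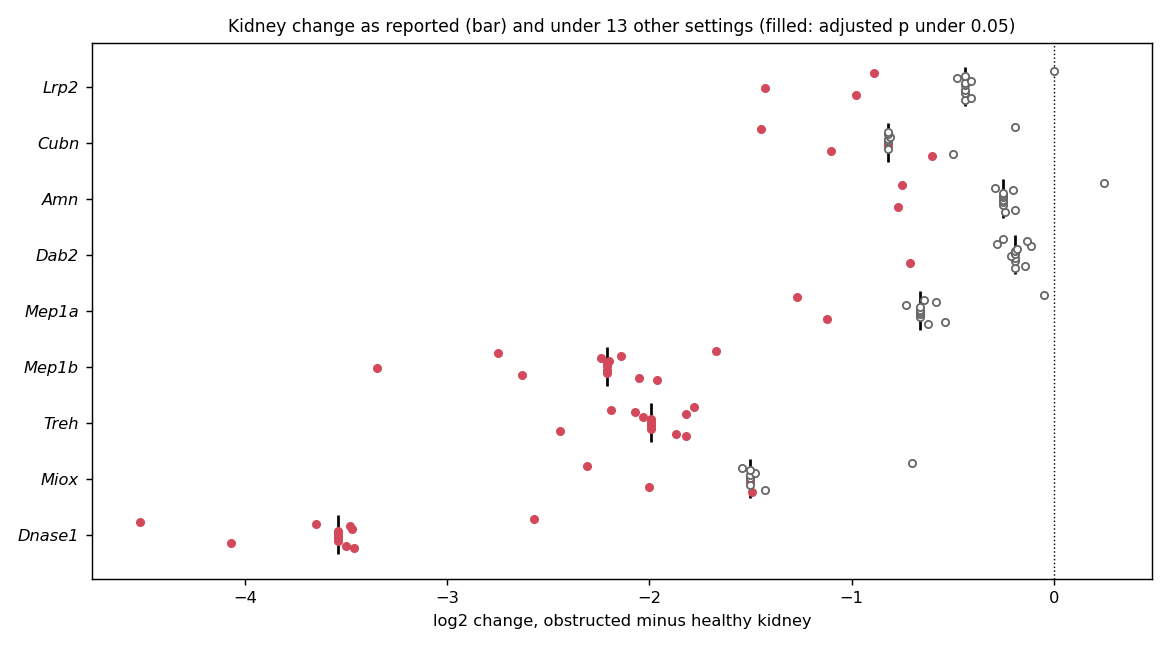
Kidney change of each gene (x axis, log2) as reported, drawn as a bar, and under 13 other settings, drawn as points; filled points have an adjusted p under 0.05. Mep1b, Treh and Dnase1 have only filled points, and for the other genes, Cubn and Miox among them, most points are open.

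The median over all genes shifted with the scaling of the arrays, so the kidney changes were also read against the median of all genes. That median was 0.10 as reported, 0.27 with arrays scaled to a common median and -0.24 with the authors' processed intensities. Relative to it, Dnase1 changed by -3.64, -3.77 and -3.83 in these 3 settings. Mep1b changed by -2.30, -2.32 and -2.39, and Treh by -2.08, -2.14 and -2.20. Miox changed by -1.60, -1.70 and -1.76, Cubn by -0.92, -0.77 and -0.86. Dab2, the gene nearest to 0, changed by -0.29, -0.41 and -0.47. With the authors' intensities all 9 genes passed the test as lower, and there the whole distribution had moved down.

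Genes that work beside these were read as lists. Of 20 further brush border hydrolase and scaffold genes tested, 7 were lower and 0 higher in the obstructed kidneys, with a median change of -0.43, and with arrays scaled to a common median these counts were 6 and 1. Without obstructed replicate 2 the count of lower genes was 4, and at an unadjusted p under 0.05 the counts were 8 and 0. Ace, the gene of angiotensin-converting enzyme, fell by 1.69 ± 0.19 on the log2 scale (SE, limma adjusted p = 9.3e-05), and Eps8, an actin-capping gene of microvilli, fell by 1.52 ± 0.24 (SE, limma adjusted p = 0.00079). Ace stood at 10.15, 10.12 and 10.22 in the healthy and at 8.49 and 8.46 in the obstructed kidneys, so for this gene the 2 obstructed arrays were alike.

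The machinery of clathrin-mediated uptake showed no common direction. Of 20 genes tested, 3 were higher and 3 lower, with a median change of 0.17; with arrays scaled to a common median 5 were higher and 2 lower, and with the authors' intensities 0 were higher and 4 lower. Without obstructed replicate 1, and likewise without replicate 2, 1 was higher and 2 were lower. Appl1 and Gipc1, adaptors of early endosomes, rose by 0.72 ± 0.20 and 0.69 ± 0.22 (SE, limma adjusted p = 0.018 and 0.028). Cltb, a clathrin light chain gene, fell by 0.91 ± 0.20 (SE, limma adjusted p = 0.0057), and Rab5a, a GTPase gene of early endosomes, fell by 1.15 ± 0.30 (SE, limma adjusted p = 0.013). In the LDL receptor family, to which megalin belongs, 1 of 10 other genes was higher and 3 lower, with a median of -0.16. Lrp1, a receptor gene of many non-epithelial cells, rose by 0.96 ± 0.22 (SE, limma adjusted p = 0.006), while the Wnt co-receptor gene Lrp6 fell by 1.50 ± 0.19 (SE, limma adjusted p = 0.00024) and Lrp11 fell by 0.80 ± 0.18 (SE, limma adjusted p = 0.0066).

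The genes around Miox fell together. All 7 tested genes of inositol breakdown and uptake, other than Miox, were called lower, with a median change of -1.07, but with arrays scaled to a common median 3 were, and without obstructed replicate 2 only 2 were. Akr1a1, an aldehyde reductase gene, fell by 0.89 ± 0.14 (SE, limma adjusted p = 0.00082), and Cryl1, encoding gulonate dehydrogenase, fell by 1.24 ± 0.33 (SE, limma adjusted p = 0.014). Cryl1 stood at 12.57, 12.39 and 12.21 in the healthy kidneys and at 11.89 and 10.42 in the obstructed ones.

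Of 10 genes of glutathione synthesis and of its salvage, the pathway that γ-glutamyl transferase opens, 6 were lower and 1 higher, with a median of -0.80. The median difference from the healthy mean was -0.51 in obstructed replicate 1 and -0.86 in replicate 2. Gclc, Gclm and Gss, the synthesis genes of the list, were all among the 6. Anpep and Dpep1 are in this list and in the brush border list, and Dpep1 was counted as lower in both. Ggct, the γ-glutamylcyclotransferase gene, fell by 2.12 ± 0.34 (SE, limma adjusted p = 0.00083), and Gclm, a subunit gene of the enzyme that makes γ-glutamylcysteine, fell by 0.94 ± 0.17 (SE, limma adjusted p = 0.0017). Ggt5, a relative of Ggt1, was at least 1.53-fold higher (limma adjusted p = 0.0042). Of 4 other deoxyribonuclease genes only Dnase2a, encoding a lysosomal nuclease, changed: it fell by 0.74 ± 0.17 (SE, limma adjusted p = 0.0058), and with arrays scaled to a common median none was called lower and 1 higher.

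Across 27 other genes of proximal tubule transport and metabolism, 9 were lower and 2 higher, with a median of -1.12, and the count of lower genes was 15 without obstructed replicate 1 and 5 without replicate 2. Slc22a6, the organic anion transporter gene, stood at 13.48, 13.38 and 13.26 in the healthy and at 10.65 and 9.62 in the obstructed kidneys, so that it fell by 3.23 ± 0.25 (SE, limma adjusted p = 1.5e-05). Acsm2, an acyl-CoA synthetase gene, fell by 3.63 ± 0.39 (SE, limma adjusted p = 8.4e-05). The 2 that rose were Slc13a1, the sodium sulfate cotransporter gene (8.80, 8.50 and 8.45 against 10.84 and 10.50; change 2.09 ± 0.24 SE, limma adjusted p = 0.00014), and Cyp27b1, which activates vitamin D (1.16 ± 0.21 SE, limma adjusted p = 0.0016). Injury genes stood apart from these lists, with 9 of 9 tested higher and the smallest p for Vcam1, an adhesion gene (4.01 ± 0.16 SE, limma adjusted p = 5.2e-07), and Sox4, a transcription factor gene (3.57 ± 0.23 SE, limma adjusted p = 7.2e-06). Of 8 thick limb and distal tubule genes 1 was higher and 1 lower, with a median of -0.15, of 8 collecting duct genes 1 was higher and 3 lower, and 9 of 10 fibroblast genes were higher.

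**Figure D5:**
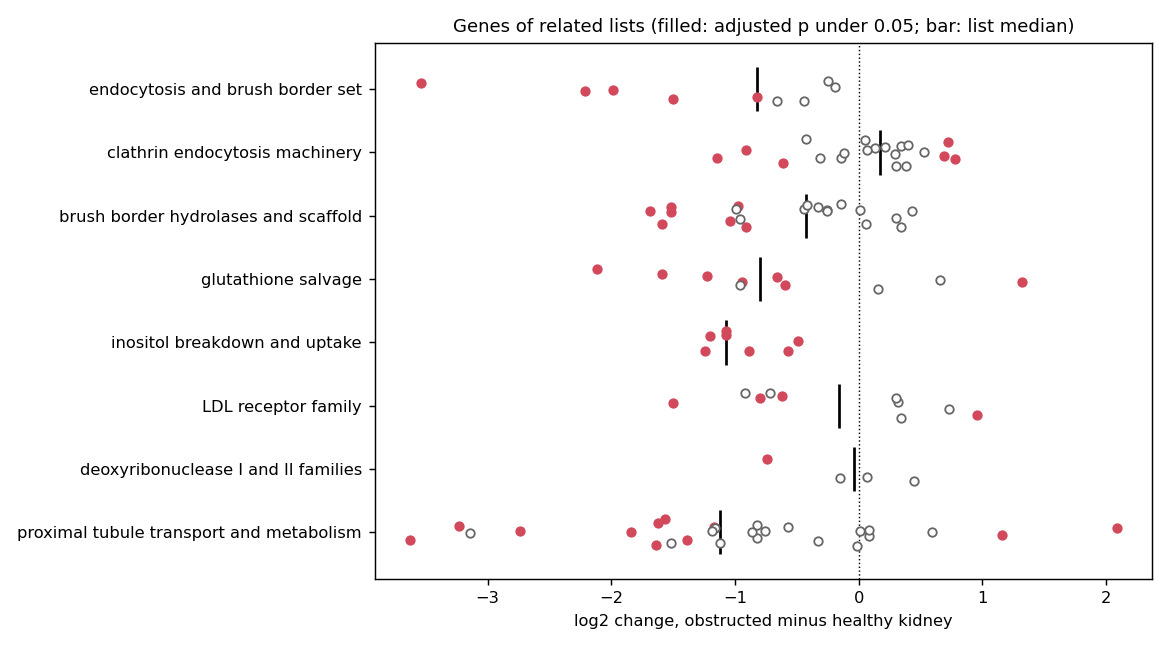
Log2 change in obstructed against healthy kidney (x axis) of every tested gene of each list, with the list's median as a bar; filled points have an adjusted p under 0.05. The inositol genes all lie below 0, the clathrin genes lie on both sides of it, and the proximal tubule genes spread from -3.63 to 2.09.

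The lung was asked the same question after bleomycin. There 2 of the 9 genes were called higher, Dab2 and Amn, and 0 lower, at an adjusted as at an unadjusted p under 0.05, where 18.9% of all genes were called in each direction. The members' median change was 0.07. The other 7 genes had changes between -0.22 for Lrp2 and 0.37 for Miox, none past the threshold.

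Dab2 stood at 9.75, 9.86 and 9.89 in the healthy lungs and at 11.52, 11.39 and 11.89 in the bleomycin lungs, all of the latter higher. The change was 1.76 ± 0.16 (SE, 3.39-fold higher, limma adjusted p = 5.5e-05), and the other 2 kept probes gave 0.82 ± 0.20 and 1.61 ± 0.18 (SE, limma adjusted p = 0.0093 and 9.4e-05 over all kept probes). It was 1.81 without bleomycin replicate 1, 1.63 without replicate 3 and 1.79 without healthy replicate 3, the arrays whose transcripts stood apart. Of 13 macrophage markers 10 rose and 0 fell in the bleomycin lungs, among them Mrc1 (2.25 ± 0.14 SE, limma adjusted p = 1.1e-05) and the complement gene C1qc (2.76 ± 0.22 SE, limma adjusted p = 3.2e-05). Summed, the 13 came to 14.21 to 14.27 in the healthy and 14.56 to 15.25 in the bleomycin lungs, and their part in the Dab2 rise was not tested.

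Amn was dim in the lung. It stood at 4.73, 5.00 and 4.65 in the healthy lungs, above background on 1 of 3 arrays, and at 5.88, 5.76 and 5.75 in the bleomycin lungs, above background on all 3. The change was 1.01 ± 0.22 (SE, 2.01-fold higher, limma adjusted p = 0.0055), and it was 0.93 without bleomycin replicate 1. Without background correction it was 0.34 with adjusted p = 0.198, so the call depends on how background was treated.

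Lrp2 was the other receptor gene with a level in the lung, at 9.57, 9.38 and 9.55 in healthy and 9.60, 8.90 and 9.33 in bleomycin lungs. The groups overlapped, and the change was -0.22 ± 0.24 (SE, limma adjusted p = 0.50), interval -0.74 to 0.30. Cubn and Dnase1 were not above background on any of the 6 lung arrays. Miox was above background on 1, bleomycin replicate 1, at 6.11 against 4.59 to 4.85 on the other 5, and this is the array that carried Umod and Slc12a1. Without it the Miox change in lung was -0.11 in place of 0.37, and Mep1a, at 5.18 on that array, changed by -0.18 in place of 0.05.

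In the lung's lists, 7 of 20 clathrin machinery genes were higher and 3 lower, with the smallest p for Eps15, a coated-pit scaffold gene (1.17 ± 0.13 SE, limma adjusted p = 0.00014), and Ap2s1, an adaptor subunit gene (1.13 ± 0.14 SE, limma adjusted p = 0.00027); with arrays scaled to a common median 12 were higher and 1 lower. Those with the smallest p among the lower were Myo6, a myosin gene of endocytic vesicles (-1.19 ± 0.17 SE, limma adjusted p = 0.00058), and Ehd1, a recycling gene (-0.96 ± 0.25 SE, limma adjusted p = 0.012). Cltb and Rab5a, lower in the obstructed kidneys, were higher in the bleomycin lungs by 1.26 ± 0.18 and 1.46 ± 0.27 (SE, limma adjusted p = 0.00055 and 0.0023). Of 20 brush border genes, many of which other epithelia and endothelium also use, 9 were lower and 1 higher, and with arrays scaled to a common median 4 were lower and 1 higher, and without bleomycin replicate 2, 5 were lower. Dpp4, a peptidase gene, fell by 1.88 ± 0.19 (SE, limma adjusted p = 1e-04), and Slc9a3r2, a scaffold gene, fell by 1.76 ± 0.21 (SE, limma adjusted p = 0.00022). The gene that rose was Eps8, by 1.56 ± 0.21 (SE, limma adjusted p = 0.00044), which had fallen in the kidney. Of 10 LDL receptor family genes 2 were higher and 1 lower. Lrp8, a reelin receptor gene, was at least 5.78-fold higher (limma adjusted p = 4e-04) and Lrp12 rose by 0.75 ± 0.18 (SE, limma adjusted p = 0.0077), while Lrp4 fell by 1.33 ± 0.26 (SE, limma adjusted p = 0.0031). Of 10 glutathione genes 3 were lower and 1 higher, counts that became 1 and 3 with arrays scaled to a common median and 1 and 0 without bleomycin replicate 2. Anpep and Dpep1, both among the 3, were also counted among the 9 lower brush border genes. Oplah, the oxoprolinase gene, fell by 1.00 ± 0.14 (SE, limma adjusted p = 0.00053), and Anpep, an aminopeptidase gene, fell by 1.28 ± 0.38 (SE, limma adjusted p = 0.022), while Gclc, the catalytic partner of Gclm, rose by 0.64 ± 0.21 (SE, limma adjusted p = 0.036), a call lost without healthy replicate 1 or 2 as well. Of 4 other deoxyribonuclease genes Dnase1l3, a secreted nuclease gene, was at least 1.59-fold lower (limma adjusted p = 0.011), a call lost without healthy lung replicate 2 or 3. Of the 7 inositol genes 0 were called in limma's fit, with 1 higher and 1 lower at an unadjusted p under 0.05, and of the 27 proximal tubule genes only the amino acid transporter gene Slc7a8 was, a rise of 1.59 ± 0.36 (SE, limma adjusted p = 0.0063).

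The difference between the kidney change and the lung change was tested in the same fit. It was below 0 and called for 6 of the 9 genes, where 16.2% of all genes were called lower. Dab2, above background on all 11 arrays, rose in the lung, its kidney change was -0.19, and the difference was -1.95 ± 0.24 (SE, limma adjusted p = 0.00021). For Dnase1, Mep1b, Treh and Miox the lung level lay at or near background, so their differences of -3.60, -2.28, -2.19 and -1.88 restate the kidney falls. Amn, dim in the lung, had a difference of -1.26 ± 0.33 (SE, limma adjusted p = 0.013). For Lrp2 the difference was -0.22, interval -1.01 to 0.56, with the brighter probe. ILMN_3117209 was not above background on the obstructed kidney arrays or on any lung array. Its fitted difference of -2.60 restates its level in the healthy kidneys, through which alone it passed the filter, and no test is read from it.

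Between the healthy organs all 9 genes were higher in kidney, where 28.2% of all genes tested were called higher. Cubn, Mep1a, Miox and Dnase1 were above background on at most 1 lung array, so they entered the test through their kidney level and had to differ. All 9 were also chosen as genes of the proximal tubule, so the count and the sizes are given as a description. Dab2 was 5.27-fold and Lrp2 16.1-fold higher in kidney. Dnase1 was at least 613-fold, Mep1a at least 80.2-fold, Treh at least 66.7-fold and Cubn at least 12.3-fold higher, the lung arrays being at background, as they were for Miox. Between the injured organs the Dab2 difference was 0.44 ± 0.18 (SE, limma adjusted p = 0.066), and the other 8 of 9 genes were called higher in kidney, where 22.5% of all genes were called higher. There too the entry of Cubn, Mep1a, Miox and Dnase1 through kidney arrays favoured the call, and the count is given as a description. The other 2 kept Dab2 probes were higher in kidney, by 1.33 ± 0.23 and 0.74 ± 0.20 (SE, limma adjusted p = 0.001 and 0.012 over all kept probes), and all 9 genes were called with no background correction, with the mean of a gene's probes and without bleomycin replicate 3. Dnase1 was then at least 55.9-fold and Cubn at least 7.38-fold higher in kidney than in lung.

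The genes whose levels ran most like each member over the 11 arrays are given as a description, since the organ difference sets most of each correlation. By their titles the healthy arrays also share mice. Slc22a6 was among the 2 most similar genes for Mep1b (r = 0.9976) and for Dnase1 (r = 0.9985), joined by Slc22a2, an organic cation transporter gene, for Mep1b (r = 0.9985) and Slc22a12, the urate transporter gene, for Dnase1 (r = 0.9986). Tmem174 was among them for Lrp2 (r = 0.9958) and Miox (r = 0.9993). Cubn ran with Kl, the klotho gene (r = 0.9988), and Tmem52b (r = 0.9987), and Amn with Pth1r, the parathyroid hormone receptor gene (r = 0.997), and Asb9 (r = 0.9968). Mep1a ran with Tfap2b (r = 0.999) and Cldn19 (r = 0.9988), Treh with Ldc1 (r = 0.9986) and Tmem229a (r = 0.9983), and Lrp2 also with AI854703 (r = 0.9965) and Miox with Klk1b27 (r = 0.9985). Dab2 had the weakest best matches of the 9, Dph1 (r = 0.9796) and Xpnpep1 (r = 0.9782).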

How the data were processed

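Trizol-extracted RNA that had passed a Bioanalyzer check was labelled as biotinylated cRNA, per the labels' protocols. GenomeStudio 5.0 is named in the submitters' processing notes. For each probe and array the authors deposited the raw intensity beside its detection p-value. They deposited processed intensities as well, which plotted against the raw ones lay on 1 straight line per array apart from rounding, so they are linear, with array medians of 10.6 to 28.8. No slide or scan date was used here, so no batch was tested.

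Background correction and quantile normalisation of the raw intensities used limma's neqc (limma 3.58.1, R 4.3.3), which took the negative controls from the detection p-values and added an offset of 16. Of 45281 probes, 24396 had a detection p below 0.05 on 2 or more arrays. The brightest probe stood for its gene, giving 12865 genes. In the annotation 34885 probes had 1 symbol, 18 several and 10378 none, and only the first kind was named. Group means over 11 arrays were fitted by lmFit, and eBayes shrank the variances (7 residual degrees of freedom, 3.22 prior). Where a gene was above background on no array of a group, a fold is written "at least N-fold", and on each such array the gene's own signal was raised to the lowest signal detected on that array if it lay under it. Precision is limited by the number of arrays, above all the 2 obstructed kidneys.

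The titles name the same mouse for a kidney and a lung of each healthy pair, and mouse was therefore tried as a block. The correlations of the pairs' deviations were -0.07, 0.014 and -0.113.

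The members, the lists and the tests were chosen with earlier results of these data known. Named were all members and their probes, the 2 genes with the smallest p of each list and direction in the kidney, and in the lung for the pathway lists described there, genes of the sex-linked, lung and liver lists needed to describe the kidney arrays, and the 2 genes most correlated with each member. Havcr1, Napsa, Umod, Slc12a1 and the lung values of Cltb and Rab5a were named after their values were seen. Alternatives were no background correction, scaling to a common median, the authors' processed intensities floored at 16, no filter, a detection p under 0.01, the mean of a gene's probes, the mouse block, only the arrays of the groups compared, and leaving out each array.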

Additional observations from a re-analysis of the deposited data

Results flagged for a closer look

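The change in kidney differed from the change in lung, by the test of the difference in the limma fit, for 6 of the 9 genes. All 6 differences were below 0, where 16.2% of all genes were called lower. The kidney change minus the lung change was -3.60 for Dnase1 (limma adjusted p = 0.00082), -2.28 for Mep1b (0.0011), -2.19 for Treh (0.00028), -1.95 for Dab2 (0.00021), -1.88 for Miox (0.044) and -1.26 for Amn (0.013). Dab2 and Amn rose in the lung and did not pass the test in the kidney. The other 4 fell in the kidney and lay at or near background in the lung, so their differences restate the kidney falls. In the kidney arrays, obstruction and the sex of the mice cannot be told apart. For Amn the difference was -0.58 with adjusted p = 0.136 without background correction. For Miox the difference missed the threshold without any 1 healthy kidney or healthy lung (adjusted p = 0.0517 to 0.0814), with arrays scaled to a common median (0.0794), with no filter (0.0709) and with the mouse as a block (0.0754). It was -1.07 with adjusted p = 0.194 without obstructed kidney replicate 2 and -1.39 with adjusted p = 0.067 without bleomycin lung replicate 1, the array that carried kidney transcripts.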

How the results depend on the processing

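Members called lower in kidney numbered 5 as reported. There were 3 with arrays scaled to a common median, with no filter, with the mouse as replicate block and with only the kidney arrays, in each case Dnase1, Mep1b and Treh, and 9 with the authors' intensities. The calls over all genes moved too. Of 12865 genes, 2005 were lower as reported, 1237 with a common median and 3699 with the authors' intensities. With the block 1806 were lower, with only the kidney arrays 1647, and with no filter 2041 of 19057. Leaving out 1 array gave 3 to 8, the 8 without obstructed replicate 1 and 3 without any other, and where 1 obstructed array was left it was assumed to vary like the other groups. Members called higher in lung went from 2 to 1 without background correction. The block changed no other member call in kidney or lung, and in the test of the difference it ended that of Miox (-1.88, limma adjusted p = 0.0754). Signs turned for values near 0: Amn in kidney to 0.25 (lowest -0.75 without 1 array) and the Lrp2 difference to 0.22 (lowest -0.67), both without obstructed replicate 2; in lung Lrp2 to 0.14 (common median) and 0.33 (authors' intensities), Cubn to -0.09 (common median), -0.02 (without healthy lung 2) and -0.01 (without bleomycin lung 1), Dnase1 to -0.05 (common median) and, without bleomycin lung 1, Dnase1 to -0.03, Mep1a to -0.18, Mep1b to -0.05 and Miox to -0.11; and Mep1a to -0.01 without background correction. The highest lung values without 1 array were 0.04 for Cubn, 0.20 for Mep1a, 0.19 for Mep1b, 0.63 for Miox and 0.13 for Dnase1. Genes of the lists called lower in kidney numbered 35 as reported and 19 to 41 without 1 array. Those called higher in kidney numbered 7, and 15 with a common median and 2 with the authors' intensities, and 5 to 7 without 1 array. In lung 15 were lower, and 8 and 6 in those settings, and 12 were higher, and 23 and 31. Of all calls the share that was higher was 59.8%, 77.1% and 32.1% in kidney and 50.1%, 75.9% and 88% in lung as reported, with a common median and with the authors' intensities. The cause was not tested. Of the member values under other settings, 589 kept direction and side of the threshold, 29 lost the call, 17 gained it and 13 turned. Probes at background, as for Cubn, Miox and Dnase1 in lung, allow bounds only.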
